A study of Homo sapiens with 6 samples.

Results

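The genes described here encode the mitochondrial ribosomal proteins, the proteins of the ribosome that works inside mitochondria. They were taken as every protein-coding gene of the count table whose Ensembl identifier maps to a symbol starting with MRPL or MRPS, which gave 78 genes among the 61661 identifiers of the table, 49 with an MRPL and 29 with an MRPS symbol. By the structural literature 51 of them belong to the large subunit, including MRPS18A and MRPS30 despite their names, 26 belong to the small subunit, and MRPS36 belongs to neither. Their mRNA was measured by RNA-seq in K562 cells, a long-established human cell line that was derived from the pleural effusion of chronic myeloid leukemia in its blast phase. There were 6 libraries. The 2 shCTR libraries came from cells given a lentivirus with a nonsense sequence, labelled wild type in genotype. The 2 shMETTL3 and the 2 shMETTL14 libraries came from cells with a lentiviral short hairpin RNA against METTL3 or METTL14, which form the enzyme that writes N6-methyladenosine into mRNA. Cells were selected with puromycin, grown in RPMI1640 medium with serum and antibiotics and collected in logarithmic growth, with no further treatment. The hairpins leave part of the target mRNA in place, so the cells are knockdowns and not knockouts. The labels do not say whether the 2 libraries of a group came from separate cultures, so the p-values measure the spread between these libraries, which may be technical.

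Mitochondria carry their own small genome, which encodes a few subunits of the respiratory chain and ATP synthase together with the ribosomal and transfer RNAs needed to translate them. All proteins of the mitochondrial ribosome are encoded in the nucleus, made in the cytosol and imported. Of the 77 subunit proteins 46 are classed as having a bacterial counterpart, and the remaining 31 as having none. The 31 include MRPS18A and MRPS18B, although these are paralogs of bacterial S18. Erythroid cells, whose program K562 cells partly retain, need mitochondria for heme synthesis.

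The depth was even, at 19292574 to 20115304 counts per library. Throughout, SE is the standard error of a log2 fold change, and adjusted p-values come from edgeR's quasi-likelihood test and were adjusted over all tested genes by the method of Benjamini and Hochberg. METTL3 fell by 0.87 on the log2 scale in shMETTL3 cells (SE 0.0783, edgeR adjusted p = 3.44e-07) and METTL14 fell by 0.76 in shMETTL14 cells (SE 0.0886, edgeR adjusted p = 1.4e-05). All 9 K562 markers on a fixed list had passed the filter on low counts, among them GATA1 at 4942 to 6032 reads, and the list's summed level was 1728 and 1745 CPM (a gene's reads relative to the library total, scaled to a fixed depth by TMM) in shCTR, 1897 and 1901 CPM in shMETTL3 and 1732 and 1752 CPM in shMETTL14 cells. Of these markers the embryonic globin HBE1 and the erythroid factor KLF1 were higher and the receptor KIT lower in both knockdowns. Of 8 markers of other cell types 4 passed the filter, CD3E, CD14, ALB and MS4A1 had 6 reads or fewer in every library (MS4A1 was at 0 in 5 of 6), and the list's summed level was 61.1 and 59.6 CPM in shCTR, 47.3 and 45.9 CPM in shMETTL3 and 46.8 and 49.4 CPM in shMETTL14 cells. Most of that sum was EPCAM, which fell in both knockdowns (log2 fold changes -0.57, edgeR adjusted p = 2.12e-05, and -0.40, edgeR adjusted p = 0.0013), while COL1A1 rose in shMETTL3 cells (1.11, edgeR adjusted p = 9.3e-04) from 59 and 42 to 112 and 110 reads. The part of these differences in the results below was not tested.

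The starts of these genes share short sequence motifs that the choice of members did not use. RefSeq promoter windows of 300 bases on GRCh38.p14, from 250 bases before to 50 after a start site, were found for 69 of the 78 genes, with 85 windows in all because some genes have several starts. On both strands, the letters CCGGAAG, the core bound by ETS factors such as GABP, stood in 38.8% of the windows of these genes (30 genes) and in 16.8% of the windows of all tested protein-coding genes. The letters AAGATGGCG, bound by YY1, stood in 15.3% of the windows of these genes (13 genes) and in 3.38% of those of all tested protein-coding genes. The letters GCGCA, any base and GCGC, bound by the nuclear respiratory factor NRF1, stood in 11.8% (9 genes) and 9.75%, and the TATA box letters TATAAA in 3.53% and 6.35%. Each window was counted once per motif, however many matches it held. Any of the first 3 motifs was in 57.6% of the windows of these genes, over 45 genes, and in 26.7% of those of all tested protein-coding genes. A match is a description of the letters and not a measured binding site. Of the genes called in shMETTL3 cells, MRPL1, MRPS27, MRPS5 and MRPL41 had none of these motifs, and no window was found for MRPL23 and MRPL13. Whether the motifs go with the calls was not tested. The sites below are a selection from genes that had a match and whose mRNA differed between the groups. Each is 30 bases, read 5′ to 3′ on the gene's strand, with the motif in capitals (ETS letters, or their reverse complement, in the first 4, YY1 letters in the next 3 and NRF1 letters in the last).
MRPL48, chr11:73787800-73787829, plus strand: aatttcagaagCTTCCGGaactaaaatgat
MRPL47, chr3:179604659-179604688, minus strand: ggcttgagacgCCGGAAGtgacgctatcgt
MRPL3, chr3:131502985-131503014, minus strand: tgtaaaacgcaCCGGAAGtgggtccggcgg
MRPS22, chr3:139343988-139344017, plus strand: cctcccaaccaCTTCCGGcgcaagtggctt
MRPL38, chr17:75904859-75904888, minus strand: ggccggagggAAGATGGCGgcgccctggtg
MRPL42, chr12:93467512-93467541, plus strand: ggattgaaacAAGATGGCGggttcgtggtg
MRPL52, chr14:22829779-22829808, plus strand: acgatgacccAAGATGGCGgagccgtgatt
MRPL45, chr17:38296969-38296998, plus strand: ttgtctccctGCGCACGCGCggccgtactc

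The mRNAs of the mitochondrial ribosome were present at unequal levels in K562 cells. Levels between genes were compared as RPKM, here the TMM-scaled CPM per kilobase of the gene's principal transcript. Over the 78 genes the median was 40.5 RPKM, with the middle 50% between 16.9 and 65.7, and the highest gene stood 155 times above the lowest of the 77 that passed the filter. The highest were MRPS34, a protein of the small subunit without a bacterial counterpart, at 188 ± 7.31 RPKM (SD, n = 6 libraries), MRPL37, at 154 ± 5.57 RPKM, and MRPS15, at 127 ± 5.23 RPKM. These 3 differed by more than the spread over the libraries and kept this order in each of the 6.

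Proteins with a central role in the cycle of translation were spread through this order. MRPL10 and MRPL12 form the stalk that recruits translation factors, and MRPL11 sits at its base. MRPL10 stood at 55.4 ± 2.73 RPKM and MRPL11 at 38.4 ± 2.63 RPKM (SD, n = 6 libraries), while MRPL12, which is present in several copies per ribosome, was listed at 5.80 ± 0.40 RPKM. MRPS12, a protein of the decoding centre, stood at 43.2 ± 3.84 RPKM. The 3 paralogs of bacterial S18 occupy different places, and their mRNA levels did not overlap, with MRPS18B at 84.9 ± 2.35, MRPS18A at 28.3 ± 2.75 and MRPS18C at 2.78 ± 0.449 RPKM. MRPS30, of the large subunit, stood at 79.7 ± 3.82 RPKM. MRPS36, which is now counted as a component of the oxoglutarate dehydrogenase complex, stood at 31.0 ± 1.27 RPKM.

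The lowest genes were largely those whose exons overlap another annotated gene. In 10 of the 78 genes at least 10% of the exon bases lie on the same strand as an exon of another gene, and their median level was 3.89 RPKM, against 44.6 RPKM for the other genes. MRPL12 shares 68.2% of its exon bases with AC139530.2, which had 0 reads in all 6 libraries. MRPS24 shares 23.2% with the read-through gene URGCP-MRPS24, also at 0 reads, and was itself listed at 11 and 3 reads in shCTR, 6 and 2 reads in shMETTL3 and 1 and 6 reads in shMETTL14 libraries. MRPS24 was the gene that did not pass the filter. MRPL53 (1.21 ± 0.332 RPKM, SD, n = 6 libraries), MRPL38 (1.45 ± 0.428) and MRPS28 (2.41 ± 0.272) were the lowest that passed, with overlaps of 45.2%, 37.5% and 35.8%. Of the 6 genes with under 100 reads in some library 5 have such a same-strand overlap, and the exception is MRPS18C. On the opposite strand MRPS18C shares 40.2% of its exon bases with ABRAXAS1, and MRPS18A shares 47.0% with RSPH9. Whether the counting used strand is not given, so the part of these overlaps in the levels is not known. MRPL20, MRPL30 and MRPL33 also have a same-strand overlap and stood at 79.3, 37.9 and 66.5 RPKM. HTSeq, the counting tool in the submitters' processing notes, has modes that leave out reads shared by 2 genes. The mode used is not given in the sources used here, and whether it set these low levels was not tested.

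**Figure D1:**
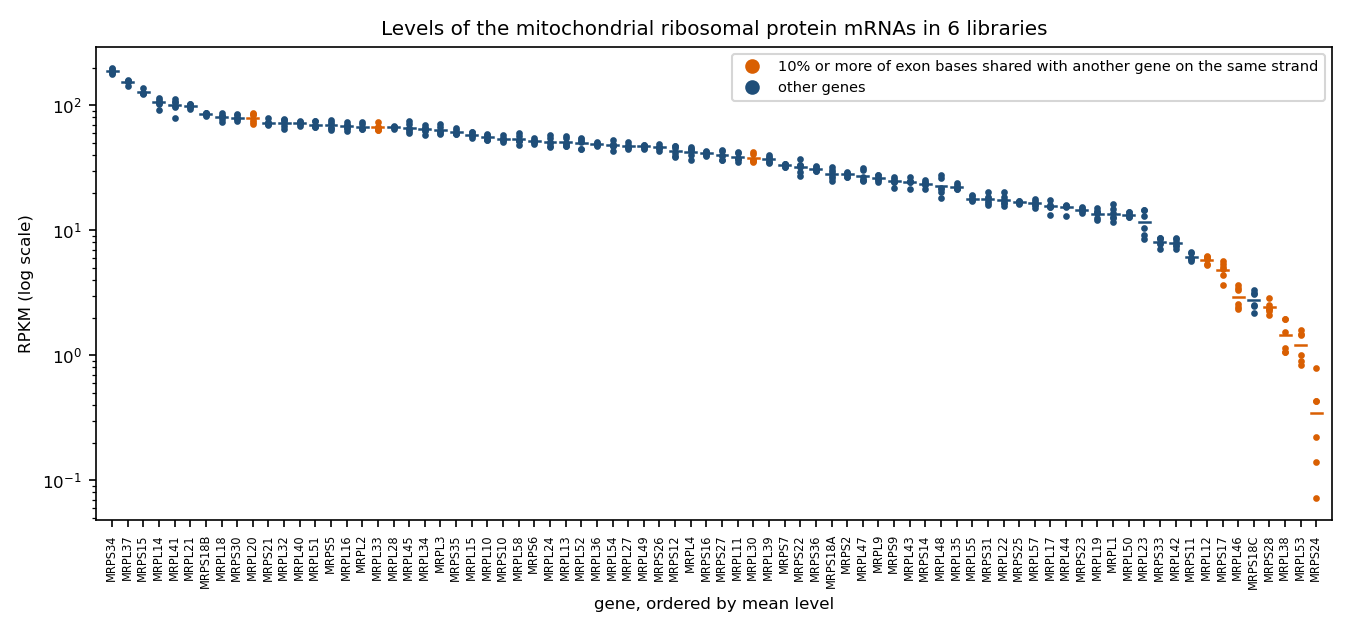
Level of each of the 78 genes in RPKM on a log scale, ordered by mean, with 1 point for each of the 6 libraries and a bar at the mean. Genes that share at least 10% of their exon bases with another gene on the same strand are in orange, and they make up most of the right end, below 6 RPKM.

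As a whole, the set took a nearly constant share of the mRNA. The summed counts of the 78 genes were 0.486% and 0.506% of the library in shCTR, 0.498% and 0.503% in shMETTL3 and 0.491% and 0.493% in shMETTL14 cells, so both knockdowns lay inside the range of the shCTR libraries. Scaled by TMM, which sets each library relative to its other genes, the sums were 4945 and 5161 CPM in shCTR, 4888 and 4922 CPM in shMETTL3 and 4906 and 4938 CPM in shMETTL14 cells. On this scale all 4 knockdown libraries were below both shCTR libraries, and the shCTR libraries lay further from each other than the lower of them did from any knockdown library. These are bulk samples, so fewer cells of a kind and less RNA per cell cannot be told apart.

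In shMETTL3 cells 14 of the 77 tested genes were lower and 1 was higher than in shCTR cells at an edgeR adjusted p under 0.05 over all 17686 tested genes, while 7.73% of all tested genes were called lower and 8.73% higher. The falls lay in the large subunit in 12 of 51 genes and in the small subunit in 2 of 25, and they took in 8 of the 45 tested genes with a bacterial counterpart and 6 of the 31 without. The rise was in the large subunit. No small-subunit gene was called higher, nor was any at an unadjusted p under 0.05 (0 of 25). The median log2 fold change of the 77 genes was -0.05, against 0.0030 for all tested genes. It was 0.0041 when libraries were scaled by their size alone, and that scaling raised the median of all tested genes as well. The groups did not overlap in 29 genes that were lower and 15 that were higher in shMETTL3 cells, where 27.3% and 28.7% of all tested genes did not overlap in these directions. The count of falls depended on single libraries. It was 2 without the shMETTL3 library of replicate 1, 1 without that of replicate 2, 8 without either shMETTL14 library and 9 without the shCTR library of replicate 1, and it was 7 with DESeq2.

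**Figure D2:**
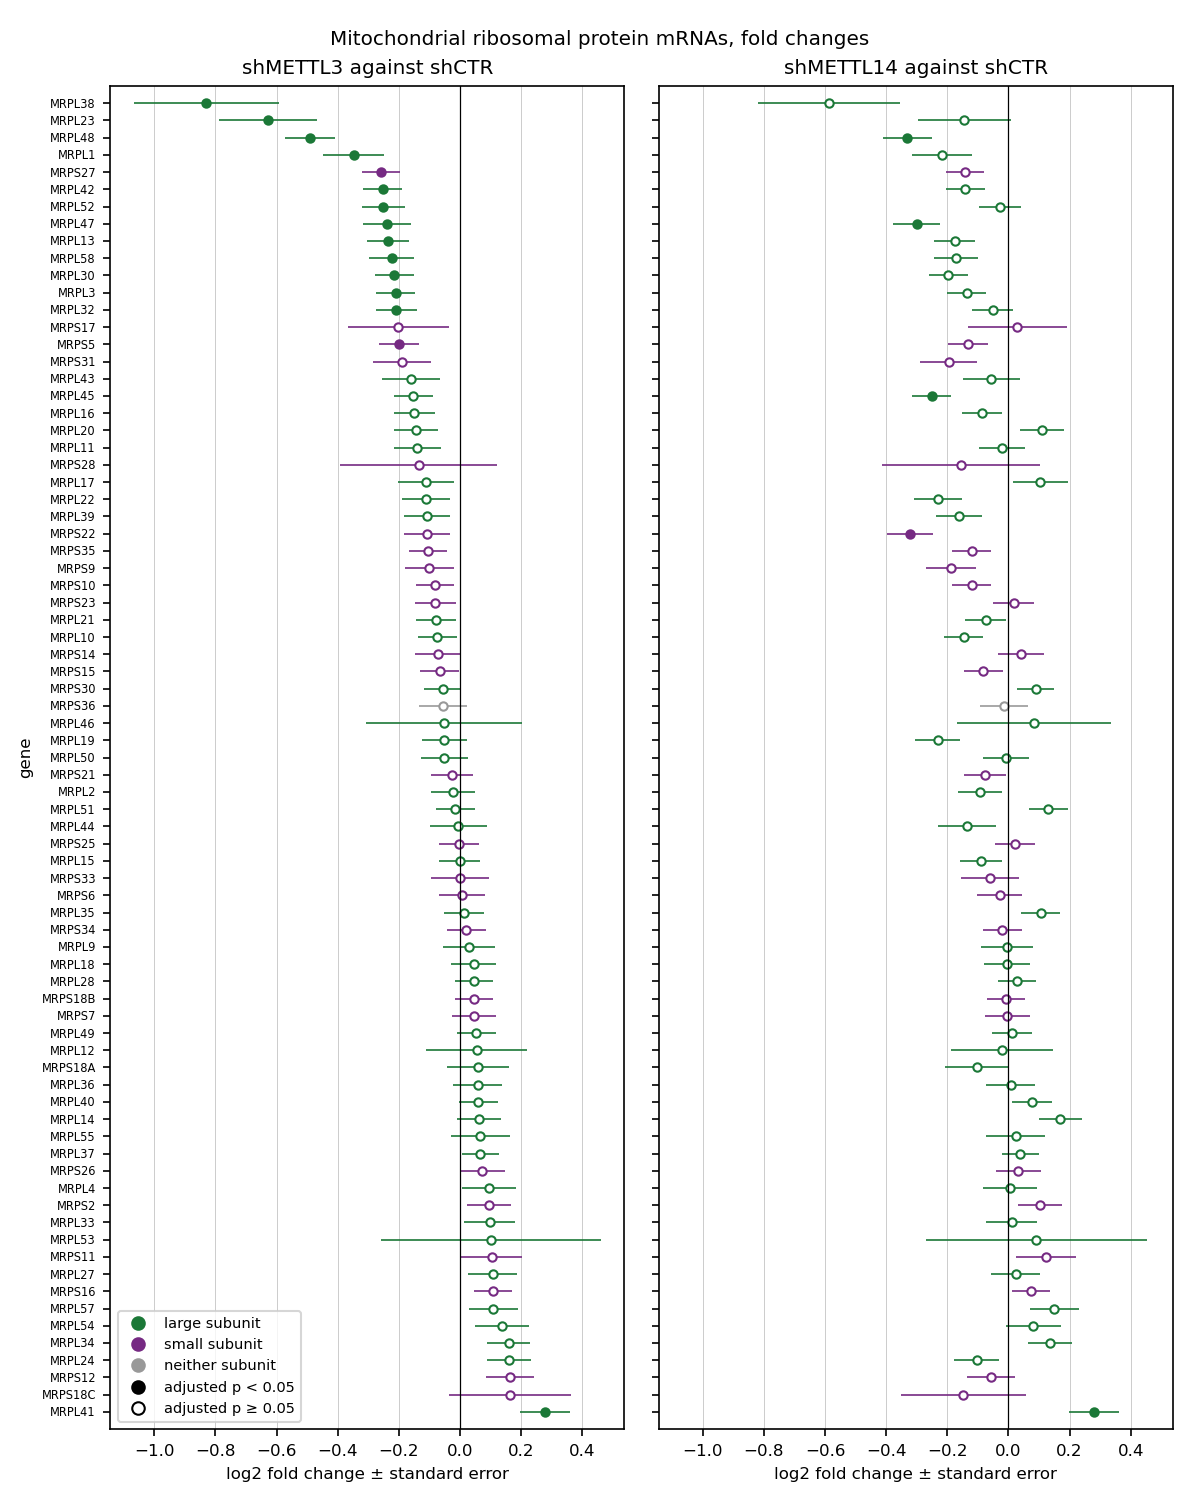
The log2 fold change with its standard error for each of the 77 tested genes, ordered by the value in shMETTL3 cells (left) and in the same order for shMETTL14 cells (right), both against the same 2 shCTR libraries. Filled points passed an adjusted p of 0.05, which 15 genes did on the left and 5 on the right, and most of the open points lie within 0.2 of 0.

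MRPL38, MRPL23 and MRPL48, all of the large subunit, had the largest fitted falls in shMETTL3 cells. MRPL48 (ENSG00000175581, GRCh38 chromosome 11, 73787316 to 73865133, plus strand, 8 exons) is a protein of the central protuberance, the part of the large subunit that faces the transfer RNAs. It stood at 42.4 and 40.5 CPM in shCTR, 27.9 and 31.0 CPM in shMETTL3 and 32.6 and 33.3 CPM in shMETTL14 cells. All 4 knockdown libraries were below both shCTR libraries. Its log2 fold change in shMETTL3 cells was -0.49 (SE 0.0819, edgeR adjusted p = 3.84e-04), and it was called lower under all 9 other settings and with any of the 6 libraries left out. MRPL48 was the 1 gene of the set for which that held.

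MRPL23 (ENSG00000214026, chromosome 11, 1947278 to 1984522, plus strand) lines the exit of the tunnel through which the new protein leaves. It stood at 9.51 and 10.7 CPM in shCTR, 6.31 and 6.73 CPM in shMETTL3 and 7.63 and 10.6 CPM in shMETTL14 cells. The shMETTL3 libraries were the lowest 2 of the 6, and the shMETTL14 libraries overlapped with shCTR. In shMETTL3 cells it changed by -0.63 on the log2 scale (SE 0.16, edgeR adjusted p = 0.0104). The antisense gene MRPL23-AS1, which covers 2.86% of the exon bases of MRPL23, was counted at 9 and 53 reads in shCTR, 4 and 1 reads in shMETTL3 and 2 and 18 reads in shMETTL14 libraries. Whether the counting used strand is not given in the sources used here, so reads of the pair cannot be told apart.

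MRPL38, also of the central protuberance, had the largest fitted fall and few reads. Its reads numbered 72 and 71 in shCTR, 39 and 43 in shMETTL3 and 57 and 39 in shMETTL14 libraries. All 4 knockdown libraries were below shCTR. The change in shMETTL3 cells was -0.83 on the log2 scale (SE 0.237, edgeR adjusted p = 0.0204), and the call was lost with DESeq2 and with 3 of the 6 libraries left out in turn. The overlapping AC087289.3 had 1 to 5 reads per library.

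MRPL52, a further central protuberance protein with a call, stood at 57.5 and 60.4 CPM in shCTR, 49.8 and 49.3 CPM in shMETTL3 and 59.5 and 56.3 CPM in shMETTL14 cells. Both shMETTL3 libraries were below both shCTR libraries, and so was 1 of the 2 shMETTL14 libraries. The log2 fold change was -0.25 in shMETTL3 cells (SE 0.0698, edgeR adjusted p = 0.018) and -0.03 in shMETTL14 cells (edgeR adjusted p = 0.872).

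MRPL1, whose bacterial counterpart forms the movable L1 stalk at which used transfer RNA leaves, stood at 21.9 and 23.9 CPM in shCTR, 17.4 and 18.5 CPM in shMETTL3 and 20.3 and 19.1 CPM in shMETTL14 cells. The groups did not overlap in either knockdown. MRPL1 changed by -0.35 on the log2 scale in shMETTL3 cells (SE 0.0992, edgeR adjusted p = 0.0203). MRPL13, MRPL3 and MRPL32, further large-subunit proteins with bacterial counterparts, had smaller fitted falls. MRPL13 stood at 59.7 and 61.4 CPM in shCTR and 51.3 and 51.5 CPM in shMETTL3 cells (log2 fold change -0.24, edgeR adjusted p = 0.0213), and MRPL3 at 120 and 113 CPM in shCTR and 101 and 100 CPM in shMETTL3 cells (log2 fold change -0.21, edgeR adjusted p = 0.0275). MRPL32 stood at 80.4 and 78.3 CPM in shCTR and 70.9 and 66.5 CPM in shMETTL3 cells (log2 fold change -0.21, edgeR adjusted p = 0.0412). In each of these 3 the shMETTL3 libraries were below both shCTR libraries. Of 9 other settings the call was kept in 5 for MRPL13, 5 for MRPL3 and 3 for MRPL32, and with 1 of 6 libraries left out in turn it was kept in 4, 1 and 1 fits.

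MRPL47, the counterpart of bacterial L29 at the tunnel exit, was called in both knockdowns. It stood at 41.1 and 42.8 CPM in shCTR, 34.4 and 36.7 CPM in shMETTL3 and 33.6 and 34.5 CPM in shMETTL14 cells, with no overlap. Its log2 fold change was -0.24 in shMETTL3 cells (edgeR adjusted p = 0.0395) and -0.30 in shMETTL14 cells (edgeR adjusted p = 0.0233). The call in shMETTL3 cells was lost under 6 of 9 other settings. MRPL42, a protein without a bacterial counterpart, stood at 136 and 133 CPM in shCTR, 116 and 109 CPM in shMETTL3 and 119 and 125 CPM in shMETTL14 cells, again with no overlap. Its log2 fold change in shMETTL3 cells was -0.25 (SE 0.0638, edgeR adjusted p = 0.00982). MRPL58, a peptidyl-tRNA hydrolase that became a ribosomal protein and can free stalled ribosomes, stood at 50.5 and 53.3 CPM in shCTR and 43.1 and 45.7 CPM in shMETTL3 cells (log2 fold change -0.22, edgeR adjusted p = 0.0397). MRPL30 had a log2 fold change of -0.22 (edgeR adjusted p = 0.0242). Of 9 other settings the call was kept in 5 for MRPL58 and 7 for MRPL30.

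In the small subunit the falls in shMETTL3 cells were MRPS27 and MRPS5. MRPS27 (ENSG00000113048, chromosome 5, 72219409 to 72320646, minus strand, 11 exons), a pentatricopeptide repeat protein of the kind that binds RNA, stood at 123 and 120 CPM in shCTR, 102 and 101 CPM in shMETTL3 and 109 and 112 CPM in shMETTL14 cells. Its shMETTL3 libraries were the lowest of the 6. Its log2 fold change was -0.26 (SE 0.0622, edgeR adjusted p = 0.00758). The call held under all 9 other settings, but not with every library left out in turn. MRPS5 had a log2 fold change of -0.20 (edgeR adjusted p = 0.0389), with 5 of 9 settings keeping the call.

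The rise was in MRPL41 (ENSG00000182154, chromosome 9, 137551199 to 137552555, plus strand), a large-subunit protein without a bacterial counterpart that has also been tied to apoptosis. It stood at 99.2 and 121 CPM in shCTR, 125 and 142 CPM in shMETTL3 and 134 and 133 CPM in shMETTL14 cells. All 4 knockdown libraries were above both shCTR libraries, which themselves lay far apart. MRPL41 rose by 0.28 on the log2 scale in shMETTL3 cells (SE 0.0814, edgeR adjusted p = 0.0238) and 0.28 in shMETTL14 cells (edgeR adjusted p = 0.0444). Leaving out libraries in turn, the call was kept in 3 of 6 fits for shMETTL3 and 1 of 6 for shMETTL14 cells.

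In shMETTL14 cells fewer of these genes were called. Of the 77 tested, 4 were lower and 1 was higher, where 3.26% of all tested genes were called lower and 3.43% higher by the same edgeR test. The median log2 fold change was -0.03, against -0.00014 for all tested genes, and it was 0.013 without the shCTR library of replicate 2. The groups did not overlap in 26 genes that were lower and 13 that were higher, against 23.9% and 25.0% of all tested genes. Without the shMETTL14 library of replicate 1 edgeR called 0 genes of the set, with 9 lower and 1 higher at an unadjusted p under 0.05, and without that of replicate 2 it called 0, with 8 lower and 1 higher. With DESeq2 the counts were 3 lower and 0 higher, with 2 higher at an unadjusted p under 0.05.

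Beside MRPL48 (log2 fold change -0.33, SE 0.0812, edgeR adjusted p = 0.0171) and MRPL47, the falls in shMETTL14 cells were MRPS22 and MRPL45. MRPS22, a small-subunit protein without a bacterial counterpart, stood at 56.9 and 51.5 CPM in shCTR, 49.5 and 51.1 CPM in shMETTL3 and 41.8 and 44.9 CPM in shMETTL14 cells. The shMETTL14 libraries were the lowest 2 of the 6, and the log2 fold change was -0.32 there (SE 0.0758, edgeR adjusted p = 0.0126). MRPL45, which sits at the tunnel exit and holds the ribosome at the inner membrane, stood at 120 and 127 CPM in shCTR, 113 and 110 CPM in shMETTL3 and 102 and 106 CPM in shMETTL14 cells. It too was lowest in the shMETTL14 libraries, and changed by -0.25 on the log2 scale there (SE 0.0642, edgeR adjusted p = 0.0218). A near copy, the transcribed pseudogene MRPL45P2, had 205 to 246 reads per library, and how reads were split between them is not known. The knockdowns share the shCTR libraries, so their values are given side by side. The 14 genes that fell in shMETTL3 cells had log2 fold changes between -0.83 and -0.20 there and between -0.59 and -0.03 in shMETTL14 cells, where MRPL48 and MRPL47 passed the threshold.

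**Figure D3:**
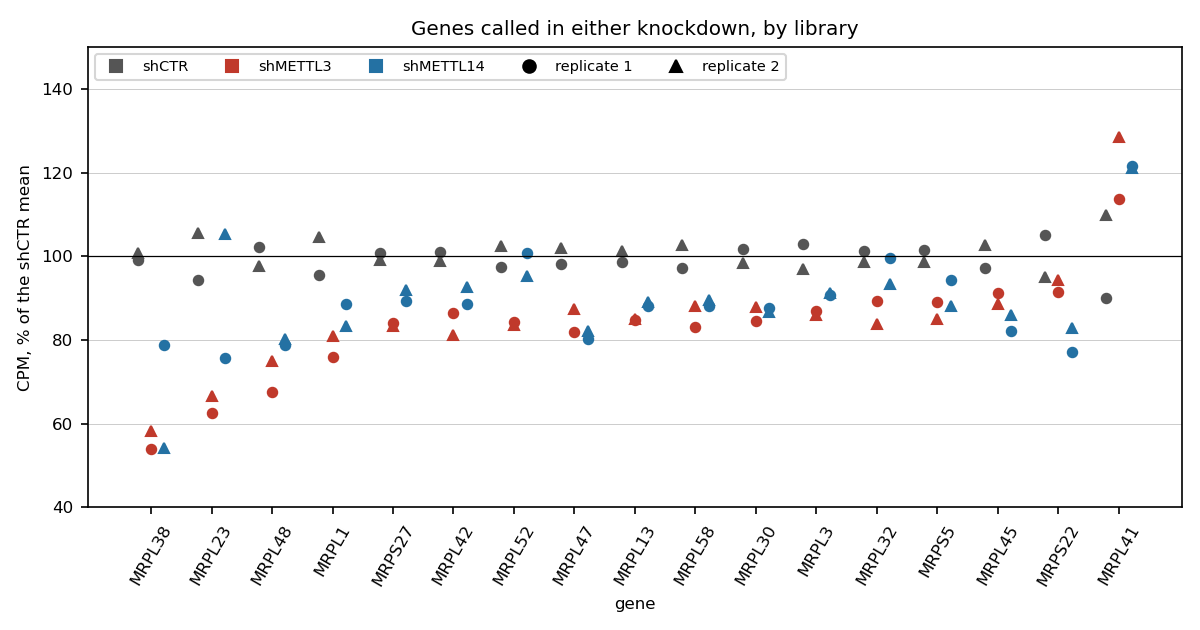
CPM of the 17 genes called in either knockdown, as a percentage of the shCTR mean (100% line), with 1 point per library (circles replicate 1, triangles replicate 2). In MRPL48 all 4 knockdown libraries lie clear of the shCTR libraries, and the shMETTL14 libraries of MRPL23 and MRPL52 overlap with shCTR.

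Compared directly, shMETTL3 and shMETTL14 cells differed in 3 of the 77 genes, 2 lower and 1 higher in shMETTL3 cells, where 5.49% of all tested genes were called lower and 6.65% higher by the same edgeR test. MRPL20, needed early in assembly of the bacterial large subunit, stood at 54.5 and 60.4 CPM in shCTR, 51.4 and 52.7 CPM in shMETTL3 and 61.5 and 62.5 CPM in shMETTL14 cells, so that the knockdowns lay on either side of shCTR. The log2 difference between them was -0.25 (edgeR adjusted p = 0.0233). MRPL52 differed by -0.22 (edgeR adjusted p = 0.0415). MRPL24, at the tunnel exit, stood at 44.9 and 44.0 CPM in shCTR, 51.0 and 48.3 CPM in shMETTL3 and 41.5 and 41.2 CPM in shMETTL14 cells, and the difference was 0.26 (edgeR adjusted p = 0.0204). The groups did not overlap in 17 genes lower and 22 higher in shMETTL3 cells, against 28.3% and 28.4% of all tested genes. None of the 3 differences was called by edgeR without the shMETTL3 library of replicate 1 (6 genes lower and 3 higher at an unadjusted p under 0.05) or of replicate 2 (5 and 2), without the shMETTL14 library of replicate 2 (3 and 2), or with DESeq2 (4 and 3).

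Of the 14 genes lower in shMETTL3 cells 10 lay in the lower 2 of 4 groups by GC content. The longest transcripts of the 14 genes lower in shMETTL3 cells had a median GC content of 43.3% (33.5% to 64.6%), against 48.7% in the other genes of the set, and MRPL41 had 71.9%. Across the 77 genes the log2 fold change in shMETTL3 cells followed GC content with a Pearson r of 0.23 and a Spearman rho of 0.42, and across 12526 tested protein-coding genes with values of 0.22 and 0.31. Genes are not independent replicates and come from the same libraries, so these are descriptions. In the lowest of 4 groups by GC content (33.5% to 41.7% over 20 genes of the set), 5 genes fell and the median was -0.08, against a median of -0.07 and 15.3% called lower among 2946 protein-coding genes in that range. In the next group 5 of 19 genes fell, with a median of -0.11 against -0.04 and 12.5% of 2664 protein-coding genes. In the third group 2 of 19 fell, with a median of 0.04 against 0.03 and 7.54% of 2467 protein-coding genes. In the highest group 2 of 19 fell as well, with a median of 0.06 against 0.11 and 2.54% of 3738 protein-coding genes. With the trend of counts on GC content and length taken out of each library, 10 genes were lower and 1 higher in shMETTL3 cells and the median log2 fold change was -0.0029. Of the 14 genes 9 were still called lower, namely MRPL48, MRPL23, MRPL38, MRPS27, MRPL42, MRPL52, MRPS5, MRPL58 and MRPL30. The other 5 were not, with log2 fold changes of -0.20 for MRPL1, -0.10 for MRPL3, -0.09 for MRPL32, -0.09 for MRPL13 and -0.08 for MRPL47. MRPL41 was no longer called higher, at 0.07.

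**Figure D4:**
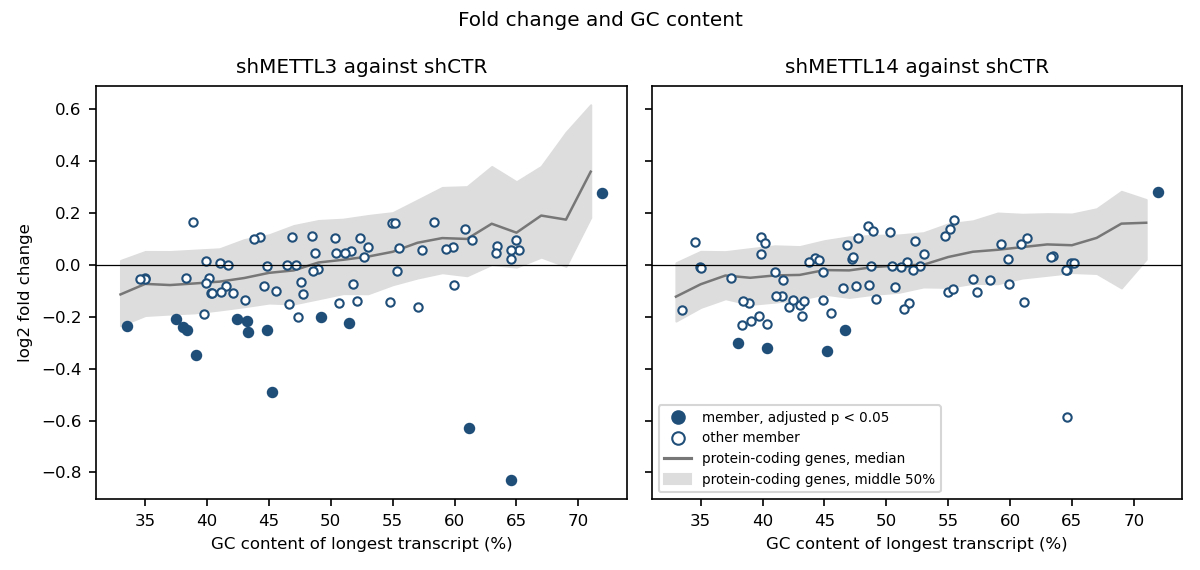
The log2 fold change of the 77 tested genes against the GC content of the longest transcript, over the median (line) and middle 50% (grey) of all tested protein-coding genes in steps of 2 percentage points. The grey band rises from left to right in both knockdowns, and MRPL48, MRPL23 and MRPL38 lie below it in shMETTL3 cells.

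The other proteins and factors of mitochondrial translation were taken from lists of 65 genes in all. Of 5 ribosomal proteins that carry other names, 2 fell in shMETTL3 cells, the small-subunit proteins PTCD3 (log2 fold change -0.29, edgeR adjusted p = 0.00509) and DAP3 (-0.27, edgeR adjusted p = 0.00331), where DAP3 binds GTP and PTCD3 is a pentatricopeptide repeat protein. In shMETTL14 cells DAP3 also fell (-0.21, edgeR adjusted p = 0.0326) and CHCHD1 rose (0.35, edgeR adjusted p = 0.00454). The reads of CHCHD1 numbered 892 and 871 in shCTR, 1011 and 1042 in shMETTL3 and 1086 and 1187 in shMETTL14 libraries, with all 4 knockdown libraries above shCTR.

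Of 29 genes on the list for assembly 4 fell (13.8%) and 1 rose (3.45%) in shMETTL3 cells, with a median log2 fold change of 0.01. By the same edgeR test 7.73% of all tested genes were called lower and 8.73% higher there. RBFA, which helps the small subunit mature, was counted at 315 and 301 reads in shCTR, 225 and 248 reads in shMETTL3 and 324 and 322 reads in shMETTL14 libraries, so that only the shMETTL3 libraries were low. Its log2 fold change was -0.41 against shCTR (edgeR adjusted p = 0.014) and -0.47 against shMETTL14 cells (edgeR adjusted p = 0.00678). The polynucleotide phosphorylase PNPT1, an enzyme that acts on RNA and was counted in this list, fell in both knockdowns (-0.27, edgeR adjusted p = 0.00537, and -0.24, edgeR adjusted p = 0.0248). The pseudouridine synthase RPUSD4 (-0.25) and the ribosomal RNA methyltransferase METTL15 (-0.25) fell, and the ribosomal RNA methyltransferase MRM1 rose (0.31), in shMETTL3 cells. Of 9 other settings the call was kept in 9 for RPUSD4, 3 for METTL15 and 5 for MRM1.

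Of 17 genes on the list for translation factors, LRPPRC and SLIRP fell in shMETTL3 cells (-0.23, edgeR adjusted p = 0.0111, and -0.26, edgeR adjusted p = 0.0212). These are the partners that stabilise mitochondrial mRNAs. GUF1 fell in shMETTL14 cells (-0.23, edgeR adjusted p = 0.0497). The falls were 11.8% of the list in shMETTL3 and 5.88% in shMETTL14 cells, against 7.73% and 3.26% of all tested genes. Of 9 other settings the call was kept in 9 for LRPPRC, 5 for SLIRP and 5 for GUF1. The elongation factor TUFM was counted at 7621 and 7954 reads in shCTR and 7814 and 7987 reads in shMETTL3 libraries, which overlapped. Of 13 tested genes for mitochondrial transcription and its nuclear regulators, GABPB1, a subunit of GABP, and MYC were lower in shMETTL3 cells (-0.25, edgeR adjusted p = 0.0304, and -0.20, edgeR adjusted p = 0.027). That was 15.4% of the list, against 7.73% of all tested genes called lower. The call was kept in 3 of 9 other settings for GABPB1 and in 7 for MYC. In shMETTL14 cells 0 genes of this list were called, and 1 had an unadjusted p under 0.05. GABPA, which binds the ETS letters shown above, had a log2 fold change of 0.02 in shMETTL3 cells (edgeR adjusted p = 0.907), YY1 one of 0.03 (edgeR adjusted p = 0.79) and NRF1 one of -0.16 (edgeR adjusted p = 0.318). PPARGC1A, a coactivator of mitochondrial biogenesis, had 2 to 7 reads per library and was not tested.

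The mRNAs that mitochondrial ribosomes translate did not fall as a group. Of the 13 mitochondrially encoded proteins 2 were higher and 1 lower in shMETTL3 cells and 2 were higher in shMETTL14 cells, with medians of 0.08 and 0.09. MT-CYB rose in both (0.50, edgeR adjusted p = 3.91e-04, and 0.40, edgeR adjusted p = 0.00651), MT-ND6 rose (0.34, edgeR adjusted p = 0.0151) and MT-ND1 fell (-0.19, edgeR adjusted p = 0.032) in shMETTL3 cells, and MT-CO1 rose in shMETTL14 cells (0.27, edgeR adjusted p = 0.001). With the GC and length trend taken out, 7 were higher and 0 lower in shMETTL3 cells. The libraries were made from polyadenylated RNA, and the tails of mitochondrial mRNAs are short, so these counts do not measure all of it.

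For the proteins of the cytosolic ribosome most of the measured genes were lower in shMETTL3 cells. Of 79 tested, 54 fell and 0 rose in shMETTL3 cells (0 rose also at an unadjusted p under 0.05), with a median log2 fold change of -0.20 against -0.05 for the mitochondrial set, and 11 fell in shMETTL14 cells, with a median of -0.11 against -0.03. Their summed share of the library was 9.12% and 9.62% in shCTR, 8.48% and 8.61% in shMETTL3 and 8.64% and 9.10% in shMETTL14 cells, so that all 4 knockdown libraries were below shCTR. With libraries scaled by size alone 33 fell in shMETTL3 and 6 in shMETTL14 cells. Without the shMETTL3 library of replicate 1 or 2 the count in shMETTL3 cells was 17 or 12, and without the shMETTL14 library of replicate 1 or 2 the count in shMETTL14 cells was 1 or 5. The difference between the lists was not tested.

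**Figure D5:**
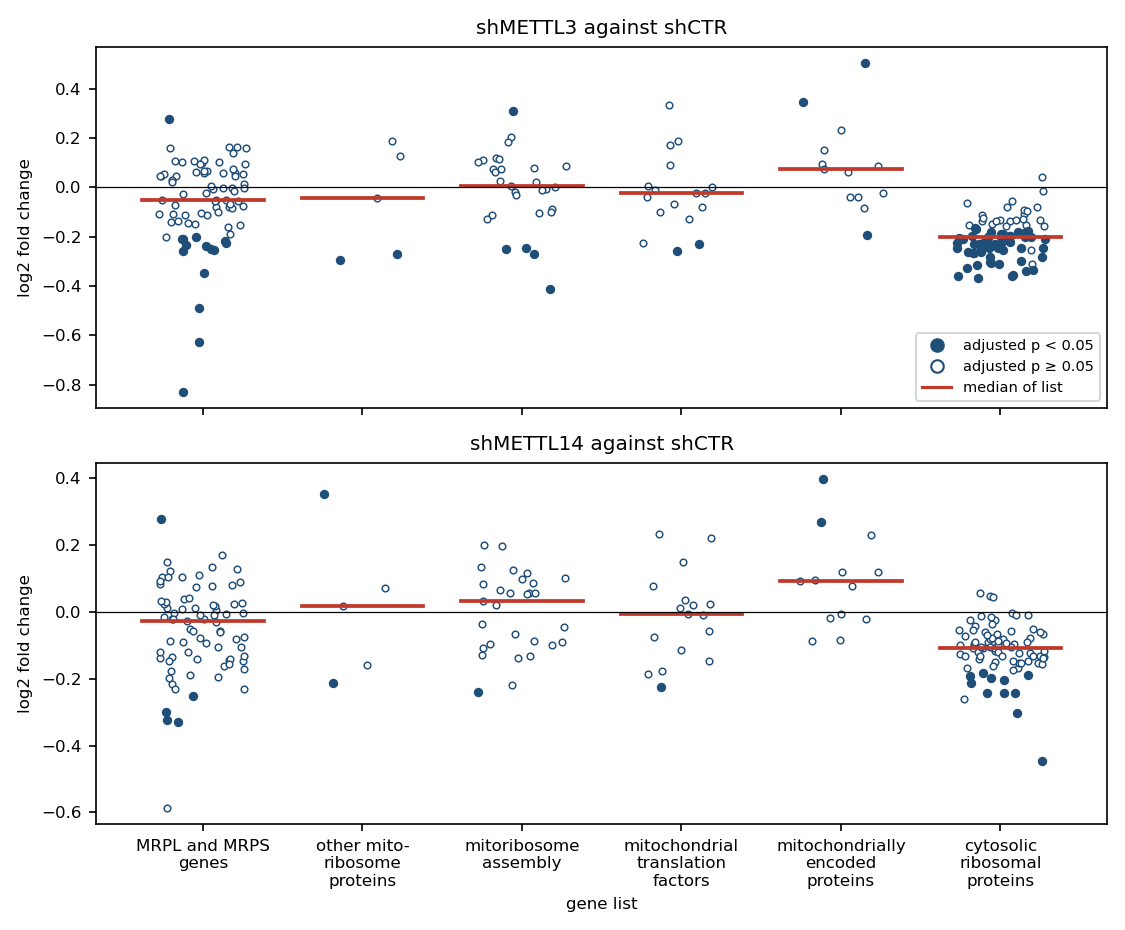
The log2 fold change of each tested gene in the mitochondrial ribosomal set and in 5 other lists, in shMETTL3 (top) and shMETTL14 cells (bottom), with the list's median as a red bar and filled points for an adjusted p under 0.05. The cytosolic ribosomal proteins lie almost wholly below 0, while the mitochondrial set spreads to both sides, with medians of -0.05 and -0.03. These medians were 0.0041 and -0.0013 with libraries scaled by size alone, which also raised the median of all tested genes in shMETTL3 cells.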

How the data were processed

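RNA-seq counts of 6 K562 libraries were analysed, 2 per group by the labels. The authors deposited 1 table of whole-number read counts per gene, not normalized. It holds 60675 Ensembl genes and 986 identifiers that the authors gave to genes outside the annotation. The submitters' processing notes name HTSeq 0.6.1 and the build hg38. The aligner, the annotation and the use of strand are not given in the sources used here. No molecular identifiers are named, so reads are not known to be independent molecules.

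Symbols came from a gene name table and otherwise from GENCODE release 29 (GRCh38), which also gave the protein-coding class, coordinates, overlaps, lengths and GC content. Another 87 identifiers with MRPL or MRPS symbols were not protein-coding and were left out. Promoter windows are from RefSeq. No protein sequences were used here.

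Tests were run in R 4.3.3. The filter filterByExpr (minimum count 10) left 17686 genes. Libraries were scaled by TMM, which makes every fold change relative to the remaining genes. All 6 libraries entered 1 model of edgeR 4.0.16, groups were compared by its quasi-likelihood test, and p-values were adjusted over the tested genes by the Benjamini-Hochberg method, with a threshold of 0.05. The steps were tested on simulated data. Alternatives were DESeq2 1.42.0, other scaling, no filter, the compared groups only, a replicate block, a GC and length trend removed with mgcv 1.9.3 and each library left out. The libraries of 1 group were not copies of each other: their counts differed with an average chi-square of 2.59 to 5.51 over genes, and counting noise alone would give about 1.

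The members, their roles and the gene lists were chosen with earlier results of these data known. The lists and roles were written from general knowledge. Genes were named by a rule: in each comparison, the 10 genes with the largest called rises and the 10 with the largest called falls, with at least 10 counts in each library compared, the 3 highest and 3 lowest by RPKM, genes below the filter, 10 further members whatever their values, and up to 3 rises and falls per list. MRPL3, MRPL30, MRPL32 and MRPS5, the list genes given with values but not called (TUFM, GABPA, YY1, NRF1, PPARGC1A) and MRPL33, METTL15 and the pseudogene and antisense partners were added after their values were seen. The values of 1 marker gene are not reported here.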

Additional observations from a re-analysis of the deposited data

Results flagged for a closer look

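Of the mitochondrial ribosomal protein genes, 3 had effects of METTL3 and METTL14 knockdown that differed by the test of the difference itself (edgeR's quasi-likelihood test, shMETTL3 against shMETTL14, adjusted over all tested genes). Of the 77 tested genes 2.60% were called lower and 1.30% higher in shMETTL3 cells, against 5.49% and 6.65% of all tested genes. The set thus held a smaller share of such calls than all tested genes. None of the 3 was called with DESeq2. MRPL20 differed by -0.25 on the log2 scale, with both shMETTL3 libraries below and both shMETTL14 libraries above shCTR. MRPL52 differed by -0.22, with both shMETTL3 libraries below and the shMETTL14 libraries overlapping shCTR. MRPL24 differed by 0.26, with shMETTL3 cells above and shMETTL14 cells below both shCTR libraries. Over all alternatives and left-out libraries the adjusted p ran from 0.00159 to 0.19 for MRPL20, from 0.0141 to 0.324 for MRPL52 and from 0.00164 to 0.201 for MRPL24.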

How the results depend on the processing

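No called value reversed under any alternative run. Among single genes, 875 comparisons with an alternative kept their side of the threshold, 90 lost the call and 9 gained it. The comparisons that kept their side include genes that were not called and stayed so, while only a called gene can lose its call. These counts therefore do not give the stability of the calls themselves. There were 2 libraries per group, and most calls rest on fold changes of about 0.2 on the log2 scale. The cause of the changes below was not tested, except that leaving out a library leaves fewer samples.

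In shMETTL3 against shCTR, 14 genes were lower and 1 higher. The count of lower genes was 7 with DESeq2, 6 with library size alone and 8 with the compared groups only, and 1 to 10 with a library left out. The count of higher genes was 3 with library size alone, 0 without a filter and 0 with the compared groups only, and 0 to 3 with a library left out. The median log2 fold change of -0.05 was 0.0041 with library size alone, -0.0029 with the GC and length trend removed, and -0.079 to -0.010 with a library left out. Library size alone moved the median of all genes to 0.058.

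In shMETTL14 against shCTR, 4 genes were lower and 1 higher. The count of higher genes was 0 with DESeq2 and 0 without a filter, and 0 to 2 with a library left out, when the count of lower genes was 0 to 6. The median of -0.03 was -0.0013 with library size alone and -0.093 to 0.013 with a library left out.

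In shMETTL3 against shMETTL14, 2 genes were lower and 1 higher. With DESeq2 and without a filter both counts were 0. The count of higher genes was 3 with library size alone, 3 with the compared groups only and 4 with the GC and length trend removed, and 0 to 3 with a library left out. The count of lower genes was 1 with library size alone and 0 to 3 with a library left out. The median of 0.02 was 0.045 with library size alone and 0.0029 to 0.021 with a library left out.

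The replicate numbers were checked for pairing. Deviations of same-numbered libraries from their group means correlated at 0.17 between shCTR and shMETTL3, -0.025 between shCTR and shMETTL14 and -0.034 between shMETTL3 and shMETTL14. Each group gives only 1 difference between its libraries, so these values cannot tell whether same-numbered libraries were prepared together. With the replicate number as a block, 14 genes were lower and 1 higher in shMETTL3 cells, 5 and 1 in shMETTL14 cells, and 3 and 1 in the direct comparison. With the block and the GC and length trend removed together, the higher counts were 3, 2 and 5, the lower count in shMETTL14 cells was 8, and the median in shMETTL3 cells was -0.0016.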
